A study of Rattus norvegicus with 9 samples.

Results

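The experiment compared cultured rat synovial fibroblasts given interleukin-1β (IL-1β) with the same kind of cells left without it. Both groups were wild type (WT) cells in normal culture, with 3 libraries each, so 6 of the 9 libraries of the series entered the comparison. Another group of 3 libraries, IL-1β-treated synovial fibroblasts sharing a transwell with dermal fibroblasts, is not compared here, but it helped to estimate the spread between libraries and entered the mean by which genes were kept. Genes were kept where their mean over the 9 libraries was at least 1 FPKM (fragment counts scaled to transcript length and library size), which left 11372 of 17298 genes. Strain and age of the rats and the dose and hours of IL-1β are not given in the sources that were used, and neither is the origin of the replicates (animals or cultures). The p-values below thus reflect how far replicate libraries scattered, and that scatter may be technical. The gene just inside the filter, Sema4g, had a mean of 1 FPKM, and the gene just outside it, LOC100909824, had a mean of 0.9989 FPKM.

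Synovial fibroblasts line the joint, where they make lubricant, matrix and, in inflamed joints, cytokines and proteases. IL-1β binds the receptor Il1r1 together with the accessory chain Il1rap, and the adaptor Myd88 passes the signal to the kinases that free NF-κB from its IκB inhibitors and activate AP-1. The best known targets are cytokines, chemokines and matrix metalloproteinases. The account here turns to the other classes of gene: receptors and surface molecules, transcription factors, membrane transporters and metabolic enzymes.

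The libraries of a group ranked the genes alike, with Spearman rank correlations of 0.9946 to 0.9959 within the groups and 0.9584 to 0.9602 between control and IL-1β libraries (computed over genes, which do not count as independent replicates). The deposited FPKM summed to 679774 to 696329 in the control and to 718498 to 741810 in the IL-1β libraries, and the read depth behind them is unknown. The label was checked against markers. All 9 fibroblast markers passed the filter, with summed levels of 7972 to 8114 FPKM in control and 8804 to 9177 FPKM in IL-1β libraries. The 13 macrophage and leukocyte markers summed to 17.95 to 19.7 FPKM and 20.8 to 25.5 FPKM, and 4 of them passed the filter. Among these Lyz2, the highest, fell from 10.7 to 7.99 FPKM and Cd68 rose from 2.3 to 4.77 FPKM. Below the filter, Adgre1 was at 0.46 to 0.52 FPKM in control and 0.94 to 1.54 FPKM in IL-1β libraries, Mrc1 at 0.51 to 0.84 FPKM and 1.29 to 1.73 FPKM, and Cd163 at 0.02 to 0.05 FPKM and 0.35 to 0.54 FPKM, while Ptprc was at most at 0.13 FPKM; the part of such cells in the results was not tested. Of the 7 endothelial markers Egfl7 was at 13.7 to 14.1 FPKM in control and 11.3 to 12.6 FPKM in IL-1β libraries, and the other 6 stayed at or below 0.49 FPKM in each of the 6 libraries. So did the 2 of 5 lymphocyte markers (Cd79a and Ms4a1) and the 2 of 5 epithelial markers (Epcam and Krt18) that have deposited values. The lymphocyte markers Cd3e, Cd3d and Nkg7 have none, so they could not be checked. Chondrocyte markers were present and fell, from 203 to 217 FPKM in control to 26.4 to 28.8 FPKM in IL-1β libraries, 6 of the 7 tested members passing. Adipocyte markers went from 773 to 817 FPKM to 494 to 524 FPKM, with 4 of 5 passing as lower. Pericyte and smooth muscle markers went from 29.4 to 30.5 FPKM to 10.6 to 12.4 FPKM, with 3 of 4 passing as lower. Schwann cell markers went from 91.2 to 95.3 FPKM to 52 to 54.4 FPKM, with 2 of 2 tested passing as lower. In bulk RNA such as this, fewer cells of a type and less RNA per cell cannot be told apart.

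With IL-1β, 2330 genes (20.5% of those tested) were higher and 3544 (31.2%) lower at a limma adjusted p under 0.05. Since 3 close libraries a group make small shifts detectable, the count of genes that also moved by 2-fold or more (a log2 fold change of 1 or more) separates the lists better: 312 genes (2.74%) were higher and 212 (1.86%) lower by that much. None of these 524 genes had overlapping control and IL-1β values, which adds little to a call that already asks for so large a change between close libraries. Of the 312, 70 had a control mean under 1 FPKM and so entered the test through their treated libraries, and 32 of the 212 had an IL-1β mean under 1 FPKM and entered through the others. Of 120 tested cytokines, chemokines, collagens and genes of the MMP and ADAM families, 38 were higher and 9 lower by 2-fold, while 104 of the 312 and 72 of the 212 belonged to the 43 lists of receptors, transporters, transcription factors, metabolic genes and signalling enzymes described below. Among these 5 classes, receptors and surface molecules had the highest share of tested members changed by 2-fold, 14.2% (28 higher and 19 lower of 331). Signalling enzymes had 10.7% (6 and 3 of 84), transcription factors 7.8% (17 and 16 of 423), metabolic genes 7.59% (38 and 30 of 896) and transporters 6.48% (15 and 4 of 293). The shares are descriptions and were not tested against each other, and 582 of 913 receptor genes in the file were below the filter. The lists were drawn up with earlier results of these data known, so the order of the shares may partly reflect that choice. The receptor class also includes secreted guidance ligands such as Ntn1. The split of all calls depended on scaling: the higher genes were 39.7% of those called as deposited and 51.4% after median-of-ratios scaling, which moved the median log2 fold change over all genes from -0.0442 to 0.0022, so a list's split is also given after scaling where its share of higher calls moved by over 10 percentage points or its larger side changed; other splits moved by less. In what follows, "from x to y FPKM" gives the means of the 3 control and the 3 IL-1β libraries, ± is their SD (n = 3), and every gene said to rise or fall passed the limma test (adjusted p under 0.05). The pseudocount of 1 FPKM behind each log2 fold change shrinks the change of low genes, and fold values are ratios of mean FPKM. Counts by 2-fold rest on the log2 fold change. A low gene can thus miss them although its printed means differ by more than 2-fold. A list's median log2 fold change should be read beside the median over all genes. Its split should be read beside the 20.5% higher and 31.2% lower over all genes, and its 2-fold counts beside 2.74% and 1.86%. Most rises and falls named below were picked from genes whose control and IL-1β values do not overlap. Where a lack of overlap is mentioned for them, it follows from that choice and is no added evidence.

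**Figure D1:**
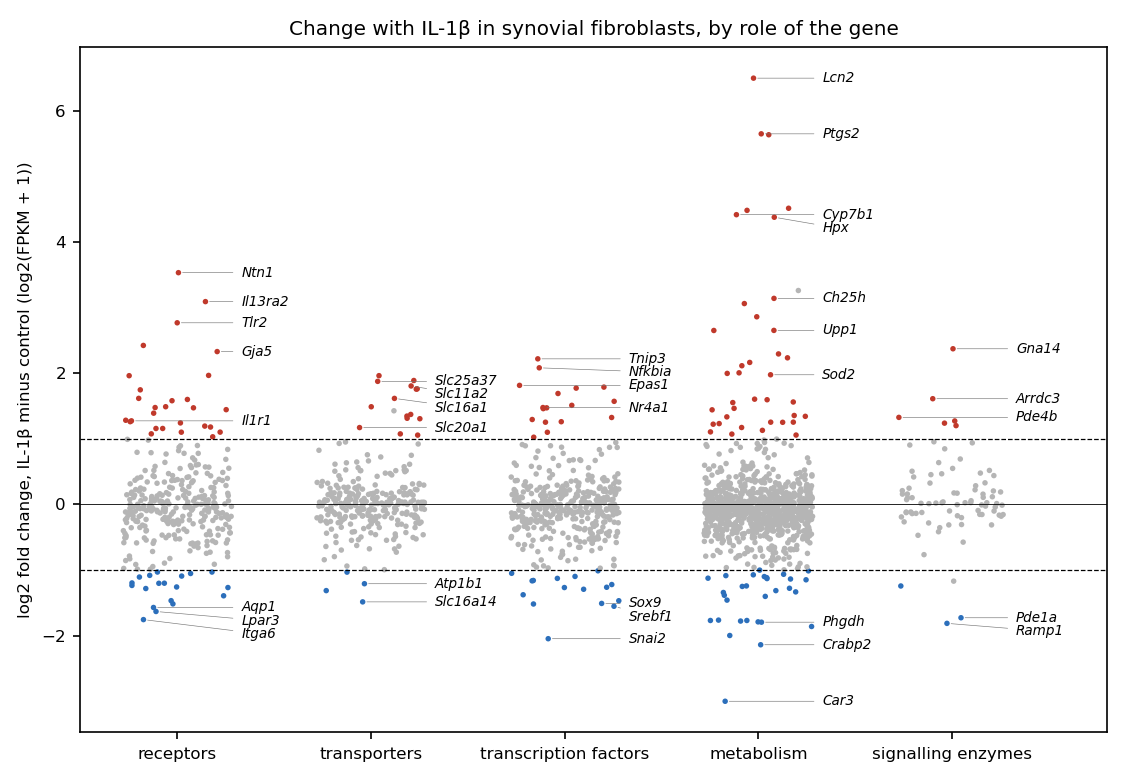
Log2 fold change of every tested member of the lists (vertical axis, log2(FPKM + 1), IL-1β minus control), grouped by role along the horizontal axis. Red and blue points passed the limma test and changed by at least 2-fold (dashed lines), up or down, and grey points did not; the widest rises were among metabolic genes, led by Lcn2 at 6.497, and the deepest fall was that of Car3 at -2.9997.

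Short stretches of promoter DNA are shown here for genes that come up repeatedly below, because the NF-κB consensus motif (kB), to which the factors released by IL-1 signalling bind, lies in them. RefSeq promoters (assembly GRCr8) were matched by gene for 9087 of the 11372 genes, and the 250 bases before each start were searched on both strands. A kB match was present in 3.52% of all 27457 RefSeq promoters of this length, in 4.3% of those of tested genes, in 25 of 217 (11.5%) of genes higher by 2-fold, and in 13 of 148 (8.78%) of genes lower by 2-fold. The AP-1 motif TGANTCA gave 4.17% over tested genes, 9.22% over the higher and 6.76% over the lower genes, the C/EBP motif TTGCNNAA gave 7.34%, 15.7% and 6.08%, and the cyclic AMP response motif TGACGTCA gave 3.1%, 1.38% and 1.35%. Capitals mark the letters covered by kB matches, and a match is a description of these letters, not evidence of binding. Most genes higher by 2-fold hold no match, among them Sod2, Slc11a2, Slc16a1, Nlrp3, Egln3 and Angptl4. In the order given, Il1r1 and Tlr2 encode receptors, Nfkbia, Nfkbiz, Tnip1 and Tnfaip3 encode NF-κB regulators, Upp1 encodes an enzyme, and Acan is shown because it holds a match and fell.
Il1r1, chr9:50034223-50034282 (+): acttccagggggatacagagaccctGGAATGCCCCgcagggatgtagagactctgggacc
Tlr2, chr2:171504728-171504787 (-): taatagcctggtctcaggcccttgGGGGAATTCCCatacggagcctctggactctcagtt
Nfkbia, chr6:78597073-78597132 (-): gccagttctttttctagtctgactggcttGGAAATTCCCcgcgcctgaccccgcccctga
Nfkbiz, chr11:58251661-58251720 (+): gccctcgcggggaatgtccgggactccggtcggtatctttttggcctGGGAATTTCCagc
Tnip1, chr10:39585012-39585071 (-): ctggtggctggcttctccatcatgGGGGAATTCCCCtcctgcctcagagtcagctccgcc
Tnfaip3, chr1:15544020-15544169 (-): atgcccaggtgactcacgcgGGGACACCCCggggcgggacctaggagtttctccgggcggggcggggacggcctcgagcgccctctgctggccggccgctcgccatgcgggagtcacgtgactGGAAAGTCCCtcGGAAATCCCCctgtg
Upp1, chr14:88024495-88024554 (+): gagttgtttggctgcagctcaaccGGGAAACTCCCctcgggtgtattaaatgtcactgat
Acan, chr1:142390831-142390890 (+): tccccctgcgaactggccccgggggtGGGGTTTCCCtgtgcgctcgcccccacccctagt

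Receptors for cytokines and TNF family ligands were more often higher than lower: of 43 tested, 22 were higher and 10 lower, 6 and 1 of them by 2-fold, with a median log2 fold change of 0.18. The signalling IL-1 receptor Il1r1, whose promoter is printed above, was at 31.2, 30.8 and 31.3 FPKM in the control and 75.9, 76.4 and 77.6 FPKM in the IL-1β libraries, with no overlap, a 2.46-fold rise (log2 fold change 1.27 ± 0.03 (SE), limma adjusted p = 3.5e-11). Its partner Il1rap was at 6.95 ± 0.17 FPKM in control and 6.67 ± 0.32 FPKM in IL-1β libraries and did not pass (limma adjusted p = 0.55), and the adaptor Myd88 fell from 22 to 17 FPKM. The widest rise in the list was that of Il13ra2, a receptor chain that binds IL-13 and is known mainly as a decoy. It was at 0.77, 0.94 and 0.91 FPKM without and 15.1, 14.8 and 15 FPKM with IL-1β, which is 17.1-fold higher (log2 fold change 3.09 ± 0.06 (SE), limma adjusted p = 3.4e-12). Tnfrsf11b, the osteoprotegerin decoy that binds RANKL, was at 5.09, 4.87 and 4.75 FPKM against 21.6, 21.6 and 22.8 FPKM (log2 fold change 1.96 ± 0.05 (SE), limma adjusted p = 1.9e-11). For Il1r1, Il13ra2 and Tnfrsf11b the highest control library lay below the lowest treated one. Costimulatory receptors of the TNF family rose from low levels: Tnfrsf9 from 1.18 to 4.96 FPKM, and Cd40 from 0.12, 0 and 0.41 FPKM in the separate control libraries to 2.95, 2.79 and 1.94 FPKM. Csf2rb, the shared chain of the GM-CSF, IL-3 and IL-5 receptors, rose from 0.823 to 3.79 FPKM. The abundant chains moved less, Tnfrsf12a rising from 219 to 341 FPKM and Il6st, the shared signal chain of the IL-6 family, from 168 to 246 FPKM. The TNF receptors parted, Tnfrsf1a falling from 138 to 106 FPKM while Tnfrsf1b rose from 11.3 to 17.5 FPKM. Edar, the ectodysplasin receptor, was the member that fell by 2-fold (from 1.9 ± 0.2 to 0.347 ± 0.045 FPKM), and the growth hormone receptor Ghr fell from 24.5 to 15.4 FPKM.

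Among 66 G protein coupled receptors, 20 were higher and 28 lower (21 and 25 after median-of-ratios scaling), with 6 changed by 2-fold each way. The risers were led by purine receptors. Adora2a, an adenosine receptor that raises cyclic AMP, was at 0.55, 0.52 and 0.65 FPKM in control and 5.16, 5.15 and 5.13 FPKM in treated libraries, 8.98-fold higher (log2 fold change 1.97 ± 0.06 (SE), limma adjusted p = 2.6e-10). Adora2b, the related receptor of lower affinity, was already at 15.5, 16.7 and 16.5 FPKM and reached 36.4, 37.1 and 38.9 FPKM (log2 fold change 1.16 ± 0.04 (SE), limma adjusted p = 5.7e-10). P2ry2, which responds to ATP and UTP, went from 5.28, 5.04 and 4.69 FPKM to 16.8, 17.5 and 16.6 FPKM (log2 fold change 1.58 ± 0.06 (SE), limma adjusted p = 5.8e-10). The groups did not overlap for any of these receptors. The atypical chemokine receptor Ackr4, which takes up chemokines without signalling through G proteins, rose from 18.6 ± 0.16 to 52.3 ± 0.74 FPKM, and Ackr3, which takes up Cxcl12, rose from 39.3 to 70.2 FPKM. The endothelin receptor Ednrb also rose by 2-fold, from 24.6 to 54 FPKM. On the other side stood the R-spondin receptors Lgr4, at 28.8, 27.1 and 28.4 FPKM against 9.03, 9.6 and 9.95 FPKM (log2 fold change -1.47 ± 0.05 (SE), limma adjusted p = 4e-10), and Lgr5, which fell from 11.8 ± 0.29 to 4.25 ± 0.31 FPKM. Lpar3, a lysophosphatidic acid receptor, fell from 6.95 to 1.57 FPKM, and Adgrl2 fell from 13.6 to 5.35 FPKM. The Wnt receptor Fzd1 rose from 121 to 208 FPKM, so receptors that set the response to Wnt ligands moved in both directions. The prostacyclin receptor Ptgir rose from 8.24 to 18 FPKM, and the kinin receptor Bdkrb1 rose from 8.35 to 9.84 FPKM. The other kinin receptor, Bdkrb2, was lower with IL-1β (from 3.24 to 2.58 FPKM), a call lost under 2 of 16 alternatives. The prostaglandin receptor Ptger4, at 2.83 FPKM in control and 2.54 FPKM in IL-1β libraries, did not pass (limma adjusted p = 0.21).

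The innate sensors, which recognise microbial or danger signals, had 8 of 18 members higher and 6 lower, 3 and 2 by 2-fold. Tlr2, the receptor for bacterial lipopeptides, was at 21.6, 20.2 and 21.4 FPKM without IL-1β and 149.5, 147 and 151 FPKM with it, 7.09-fold higher and free of overlap (log2 fold change 2.77 ± 0.05 (SE), limma adjusted p = 8.4e-13). Nlrp3, the sensor of the inflammasome that matures IL-1β, was at 1.09, 1.15 and 1.12 FPKM against 10.4, 10.2 and 10.4 FPKM (log2 fold change 2.42 ± 0.06 (SE), limma adjusted p = 1.5e-11). Nod2, a cytosolic sensor of bacterial cell wall fragments, was near the bottom of the scale in the controls (0.1, 0.15 and 0.12 FPKM) and at 3.05, 2.79 and 2.49 FPKM with IL-1β. Sensors did not move as a block: Tlr5, the flagellin receptor, fell from 2.39, 2.12 and 2.2 FPKM to 0.45, 0.32 and 0.27 FPKM (log2 fold change -1.27 ± 0.09 (SE), limma adjusted p = 1.9e-07), and Tlr4 rose only from 3.05 to 3.65 FPKM. Lipoprotein and scavenger receptors had 4 of 20 higher, 11 lower and a median log2 fold change of -0.125. Over all genes 20.5% were higher and 31.2% lower, with a median of -0.0442. Scara3 fell from 35.1 ± 0.85 to 12.8 ± 0.62 FPKM, Scara5, a ferritin receptor, fell from 29.8 to 13.9 FPKM, and Scarb1, the receptor for high density lipoprotein, fell from 34.7 to 17.9 FPKM. Lrp11 was the exception by 2-fold, rising from 7.71 to 18.7 FPKM, and the abundant Lrp1 rose from 122.8 to 155 FPKM. Receptor tyrosine kinases had no member higher by 2-fold and 2 lower, the ephrin receptor Ephb2 (from 10.8 to 4.59 FPKM) and the FGF receptor Fgfr2 (from 47.5 to 22.8 FPKM). Among the smaller rises were those of Epha2 (from 9.03 to 15 FPKM) and of Axl, the Gas6 receptor (from 186 to 245 FPKM). None of 11 TGF-β family receptors passed 2-fold, with 4 higher and 3 lower. Over all genes 2.74% were higher and 1.86% lower by 2-fold. The kinase and TGF-β lists are too short to hold many such members at those shares. Of the 24 kinases tested 7 were higher and 9 lower, a split that became 10 and 9 after median-of-ratios scaling.

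Adhesion molecules exchanged members: of 52 tested, 15 were higher and 19 lower (17 and 17 after median-of-ratios scaling), 5 and 4 of them by 2-fold. Itga6, a laminin-binding integrin chain, was at 32.6, 31.4 and 32.1 FPKM in control and 8.3, 9.22 and 8.86 FPKM in IL-1β libraries, 3.64-fold lower (log2 fold change -1.76 ± 0.04 (SE), limma adjusted p = 1.4e-11). In contrast Itga2, a collagen-binding chain, rose from 1.13, 1.14 and 0.95 FPKM to 4.79, 4.65 and 4.86 FPKM (log2 fold change 1.48 ± 0.06 (SE), limma adjusted p = 3.5e-09), and Itga7 rose from 1.08 to 4.87 FPKM. Neither gene's groups overlapped. The cell contact molecules Cadm1 (from 6.47 to 16.7 FPKM) and Cdh2, N-cadherin (from 5.58 to 14.1 FPKM), rose, while Cadm4 (from 7.59 to 2.01 FPKM), Ncam1 (from 18.7 to 8.24 FPKM) and Cdh3, P-cadherin (from 5.29 to 2.08 FPKM), fell. Of the surface proteins used to describe synovial fibroblasts, the hyaluronan receptor Cd44 rose from 136 ± 1.3 to 288 ± 2.7 FPKM, Pdpn rose from 186 to 348 FPKM, and Thy1 fell from 758 to 669 FPKM. Icam1, a ligand for leukocyte integrins, rose only from 45.9 to 59.4 FPKM, and Vcam1, which often rises with it in inflamed endothelium, fell from 24.7 to 16.1 FPKM. Guidance genes, known from growing axons, had 4 of 33 members higher by 2-fold and none lower, with 11 higher and 14 lower in all and a median log2 fold change of -0.0936. All 4 encode secreted or surface ligands, as do most of the 33 tested members of this list. Ntn1, netrin-1, was at 2.95, 3.65 and 3.67 FPKM without and 53, 49.5 and 47.7 FPKM with IL-1β, 14.6-fold higher (log2 fold change 3.53 ± 0.07 (SE), limma adjusted p = 3.5e-12). Ntn4 rose from 1.13 to 5.54 FPKM, Efna5 from 2.5 to 7.53 FPKM and Slit2 from 13.4 to 33.4 FPKM. The netrin receptor Unc5b fell from 37.9 to 21.6 FPKM and Sema7a from 4.81 to 2.21 FPKM (log2 fold change -0.855).

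Ion channels, connexins and aquaporins had 15 of 64 members higher and 24 lower (17 and 21 after median-of-ratios scaling), 3 and 2 by 2-fold. The connexins moved in opposite directions. Gja5 (connexin 40) was at 7.52, 8.29 and 6.87 FPKM in control and 42.7, 41.1 and 42 FPKM in treated libraries (log2 fold change 2.33 ± 0.06 (SE), limma adjusted p = 2e-11). Gja1 (connexin 43), the main connexin of these cells, fell from 670.3, 642 and 659.8 FPKM to 362, 376 and 376 FPKM (log2 fold change -0.82 ± 0.03 (SE), limma adjusted p = 5.1e-10), and so remained the more abundant of the pair per transcript length. Aqp1, a water channel and the highest member of the list after Gja1 in the controls, was at 470.1, 479 and 474 FPKM against 159.8, 158 and 159 FPKM, 2.98-fold lower (log2 fold change -1.57 ± 0.02 (SE), limma adjusted p = 2.9e-13). Smaller amounts were seen of Hvcn1, the voltage-gated proton channel, which rose from 3.05 to 7.95 FPKM, of the ATP-gated channel P2rx5, which rose from 4.3 to 10.4 FPKM, and of the calcium-activated potassium channel Kcnn4, which fell from 1.9 to 0.21 FPKM.

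**Figure D2:**
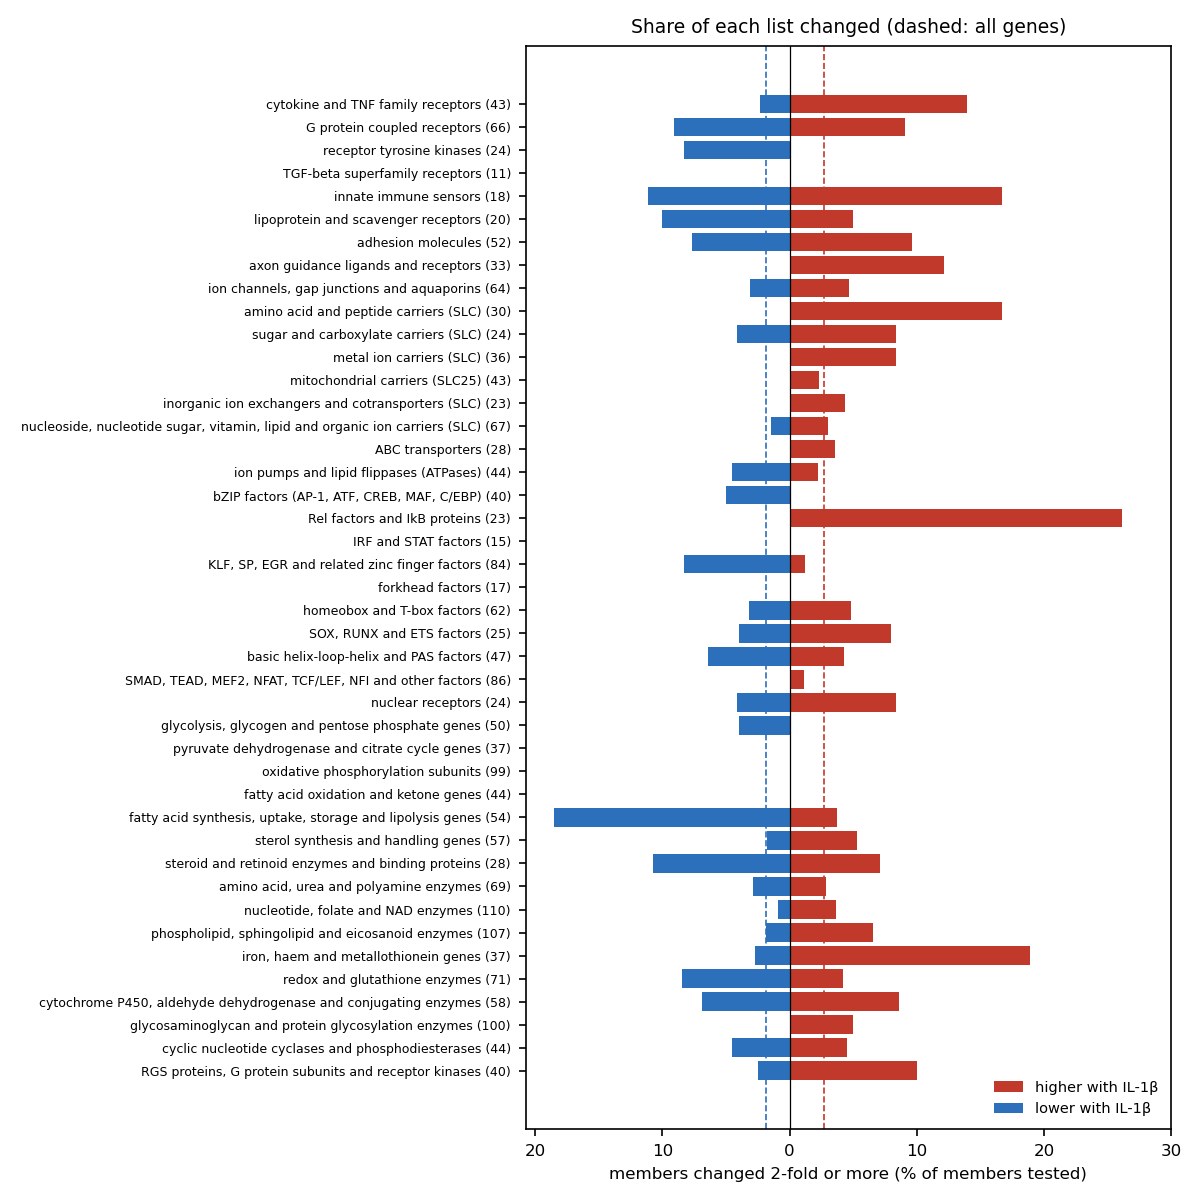
Share of the tested members of each list (number in brackets) that passed the limma test and changed by 2-fold or more, with higher genes to the right and lower genes to the left, in percent. Dashed lines mark the shares over all genes tested, 2.74% higher and 1.86% lower; the Rel factors and IkB proteins stand farthest to the right and the fatty acid synthesis and storage genes farthest to the left.

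Transporters of metal ions had 12 of 36 members higher and 10 lower, with 3 higher by 2-fold and none lower; the split became 16 and 7 after median-of-ratios scaling. The carriers that rose by 2-fold handle iron, manganese or zinc. Slc11a2, which brings ferrous iron across membranes, was at 32.2, 31.4 and 31.7 FPKM without IL-1β and 114, 114 and 113 FPKM with it (log2 fold change 1.81 ± 0.03 (SE), limma adjusted p = 2.4e-13). Slc25a37, mitoferrin-1, which delivers iron to the mitochondrial matrix, was at 21.1, 21.6 and 21.8 FPKM against 81.2, 82.5 and 81 FPKM (log2 fold change 1.88 ± 0.04 (SE), limma adjusted p = 2.7e-12). Both were free of overlap and rose by a like factor, 3.58-fold and 3.79-fold. The zinc and iron importer Slc39a14 rose from 79.2 ± 0.58 to 152 ± 2.6 FPKM and its relative Slc39a8 from 2.66 to 6.62 FPKM, while the iron exporter Slc40a1, low in these cells at 1.45 FPKM in control and 1.31 FPKM in IL-1β libraries, did not pass (limma adjusted p = 0.71).

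In the family of monocarboxylate carriers, Slc16a1, which moves lactate and pyruvate, was at 88.8, 85.3 and 87.3 FPKM in control and 265, 262 and 280.3 FPKM in IL-1β libraries, 3.09-fold higher (log2 fold change 1.62 ± 0.03 (SE), limma adjusted p = 2.4e-12). The lactate exporter Slc16a3 rose from 134.3 ± 3.9 to 206 ± 3.4 FPKM, and Bsg, the chaperone of both carriers, rose from 401 to 479 FPKM. Slc16a14, whose substrate is less well known, fell from 13 to 4 FPKM. Glucose uptake genes moved less: Slc2a1 rose from 65.4 to 80.6 FPKM and Slc2a6 from 4.07 to 7.53 FPKM. Of the 24 sugar and carboxylate carriers 9 were higher and 9 lower (9 and 8 after median-of-ratios scaling).

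Of 30 amino acid and peptide carriers 9 were higher and 15 lower (median log2 fold change -0.22), or 11 and 14 after median-of-ratios scaling, beside 2330 and 3544 over all genes, and all 5 that changed by 2-fold rose. Slc7a2, an importer of arginine, was at 13.3, 12.9 and 12.4 FPKM without and 33.3, 32.2 and 34.3 FPKM with IL-1β (log2 fold change 1.31 ± 0.05 (SE), limma adjusted p = 5.7e-10). The endolysosomal peptide carrier Slc15a3 was at 0.07, 0.1 and 0.07 FPKM in the controls and 3.45, 3.13 and 3.06 FPKM in the treated libraries. Both genes were higher in every treated library than in any control. The others were Slc1a1, a glutamate carrier (from 0.927 to 5.51 FPKM), Slc43a2, a carrier of large neutral amino acids whose promoter also holds a kB match (from 5.5 to 15.8 FPKM), and Slc7a11, the cystine and glutamate exchanger (from 1.99 to 5.3 FPKM). Carriers that fell by less than 2-fold included the abundant heterodimer of Slc7a5 (from 66.3 to 40.6 FPKM) and Slc3a2 (from 135 to 96 FPKM), which brings in leucine, and Slc1a4 (from 66.8 to 38.1 FPKM).

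Other carriers changed by 2-fold one at a time. Of 67 carriers of nucleosides, vitamins, lipids and organic ions 13 were higher and 17 lower (20 and 14 after median-of-ratios scaling), of 23 inorganic ion carriers 8 and 5, and of 28 ABC transporters 8 and 9 (9 and 8 after median-of-ratios scaling). Slc20a1, a phosphate importer, rose from 76.2 ± 1.6 to 173 ± 2.8 FPKM, whereas Ankh, which exports pyrophosphate or its precursor, fell from 42.3 to 20.7 FPKM. Slc47a1, an organic cation exporter, rose from 0.277 to 3.73 FPKM, and Slco4a1, an organic anion carrier, from 0.497 to 3.19 FPKM. Slc27a3, of the fatty acid transport family, fell from 12.9 to 4.63 FPKM, and the nucleoside carrier Slc29a1 fell from 65.3 to 40.5 FPKM. Abcb4, a phospholipid exporter, rose from 1.29 to 4.81 FPKM, while the cholesterol exporters Abca1 (from 5.41 to 4.03 FPKM) and Abcg1 (from 8.28 to 4.82 FPKM) fell. Mitochondrial carriers had 10 of 43 members higher and 12 lower, or 16 and 10 after median-of-ratios scaling, with Slc25a37 the only one past a log2 fold change of 1 in either direction. The ATPases were more often higher than lower, 22 against 9 of 44 (25 against 6 after median-of-ratios scaling), with a median of 0.151 for the log2 fold change. Atp11a, a flippase that moves phosphatidylserine inward, was at 26.2, 25.1 and 26.1 FPKM against 66.2, 65 and 65.6 FPKM (log2 fold change 1.31 ± 0.03 (SE), limma adjusted p = 1.5e-11). The subunit Atp6v1g1 of the proton pump of lysosomes rose from 216 to 343 FPKM, and the calcium pump Atp2a2 from 169.8 to 251 FPKM. Of the sodium pump, the subunit Atp1b1 fell from 51.4 ± 0.99 to 21.7 ± 0.53 FPKM and the regulator Fxyd1 fell from 12 to 5.33 FPKM.

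The Rel factors and IκB proteins had the highest share of members higher by 2-fold of the 43 lists, which were chosen with earlier results known. It was 6 of 23, with none lower by as much, with 16 higher and 3 lower in all and a median log2 fold change of 0.364. Most of those 6 encode brakes on NF-κB. Nfkbia, the IκBα that holds NF-κB in the cytoplasm, was at 19.1, 20.7 and 20.3 FPKM in control and 89.1, 88.7 and 86.5 FPKM in IL-1β libraries (log2 fold change 2.08 ± 0.04 (SE), limma adjusted p = 1.1e-12). Nfkbiz, a nuclear IκB needed for a part of the secondary response, was at 29.1, 29.3 and 28.5 FPKM against 91.6, 97.9 and 97.9 FPKM (log2 fold change 1.69 ± 0.03 (SE), limma adjusted p = 4e-12). The precursor Nfkb1 was at 35.1, 35.6 and 34.4 FPKM against 87.7, 86.7 and 87.7 FPKM (log2 fold change 1.29 ± 0.03 (SE), limma adjusted p = 6.1e-12). In each, the treated libraries stood above every control. Both IκB genes hold a kB match close to their start in the promoters printed above, while Nfkb1 and Tnip3 hold none in the bases searched. Tnfaip3 (A20), which trims ubiquitin chains in the pathway, rose from 1.35 ± 0.21 to 5.45 ± 0.29 FPKM, and its partners Tnip1 and Tnip3 rose from 35.9 to 87.1 FPKM and from 0.31 to 5.1 FPKM. Other members moved less or did not pass: Nfkb2 rose from 12.9 to 21 FPKM and Relb from 4.78 to 8.21 FPKM, and the nuclear cofactor Bcl3, at 15 FPKM in control and 16.1 FPKM in IL-1β libraries, did not pass (limma adjusted p = 0.18).

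Basic helix-loop-helix and PAS factors fell more often than they rose, as the tested genes did in all (31.2% lower and 20.5% higher). Of 47 factors 8 were higher and 25 lower (10 and 23 after median-of-ratios scaling). Their median log2 fold change was -0.191, beside -0.0442 over all genes. Among the exceptions was Epas1, the hypoxia factor HIF-2α, at 13.6, 12.5 and 11.5 FPKM without IL-1β and 50.3, 45.1 and 44.7 FPKM with it, 3.72-fold higher (log2 fold change 1.82 ± 0.06 (SE), limma adjusted p = 4.4e-10). Hif1a was far higher in the controls, 141, 139 and 142 FPKM, and reached 159, 169 and 173 FPKM, 1.19-fold higher (log2 fold change 0.25 ± 0.03 (SE), limma adjusted p = 7.3e-05). Egln3, the prolyl hydroxylase PHD3 that marks HIF subunits for breakdown, was at 1.58, 2.4 and 1.76 FPKM against 83, 79.9 and 79.2 FPKM, 42.2-fold higher (log2 fold change 4.82 ± 0.09 (SE), limma adjusted p = 2e-12). Cited2, which competes with HIF for its coactivator, rose from 49.99 ± 1.9 to 127 ± 5.1 FPKM. Twist2, a mesenchymal factor, rose from 29.5 to 86 FPKM. Srebf1, the lipogenic regulator SREBP-1, fell from 45.3, 47.6 and 46 FPKM to 15.7, 14.7 and 15.1 FPKM (log2 fold change -1.55 ± 0.05 (SE), limma adjusted p = 2.6e-10), and Bhlhe41 (from 5.44 to 1.48 FPKM) and Ahrr (from 6.75 to 2.46 FPKM) fell too.

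Factors tied to lineage and position changed in both directions. Of 84 zinc finger factors, 13 were higher and 29 lower (18 and 25 after median-of-ratios scaling), 1 and 7 by 2-fold. Snai2 (Slug), a mesenchymal repressor, was at 26.6, 30.8 and 26.1 FPKM in control and 5.41, 6.62 and 5.91 FPKM in treated libraries, 4.65-fold lower (log2 fold change -2.05 ± 0.07 (SE), limma adjusted p = 4.7e-10). Its relative Snai1 fell less, from 97 to 61.4 FPKM. Osr1, a factor of connective tissue progenitors, fell from 27.3 ± 1.5 to 8.89 ± 0.49 FPKM, and Klf2 from 9 to 3.02 FPKM and Plagl1 from 6.03 to 2.02 FPKM, whereas Gata6 rose from 2.09 to 5.63 FPKM. Homeobox and T-box factors had 14 of 62 higher and 27 lower. En1, a limb patterning factor, rose from 3.58 ± 0.25 to 12.6 ± 0.44 FPKM, and Meox1 (from 0.177 to 3.05 FPKM) and Tbx3 (from 5.76 to 12.8 FPKM) rose as well. The bone factor Dlx5 fell from 2.73 to 0.567 FPKM, and the limb mesenchyme factor Prrx1, the most abundant of these, rose from 229 to 368 FPKM. Sox9, the master factor of cartilage, was at 5.83, 5.7 and 5.69 FPKM against 1.27, 1.43 and 1.41 FPKM (log2 fold change -1.51 ± 0.07 (SE), limma adjusted p = 4.7e-09), beside the fall in summed chondrocyte markers given above, of which it is one. Of 25 SOX, RUNX and ETS factors 7 were higher and 7 lower (8 and 6 after median-of-ratios scaling). Runx1 fell from 29.4 to 17 FPKM, and the ETS factors Etv4 (from 3.58 to 11.7 FPKM) and Elf5 (from 0.827 to 5.29 FPKM) rose.

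Of 40 bZIP factors 15 were higher and 15 lower (17 and 15 after median-of-ratios scaling), and only falls reached 2-fold. Atf5, an amino acid stress factor, was at 139.8, 144 and 140.2 FPKM without and 58.7, 58.3 and 57.4 FPKM with IL-1β (log2 fold change -1.27 ± 0.04 (SE), limma adjusted p = 7.7e-11). The C/EBP factors parted: Cebpb rose from 138 ± 4.3 to 227 ± 18 FPKM, Cebpd rose from 198 to 259.7 FPKM, and Cebpa fell from 42.4 to 20.5 FPKM. Among AP-1 genes Fosl1 rose from 24.4 to 46.3 FPKM and Jdp2, a repressor, fell from 25.5 to 14.2 FPKM. Interferon regulatory factors and STATs had 2 of 15 higher and 7 lower, beside 20.5% and 31.2% of all genes. None had a log2 fold change of 1 or more in either direction. Irf1 (from 14.1 to 9.79 FPKM), Irf7 (from 4.94 to 2.05 FPKM, log2 fold change -0.967), Stat3 (from 77.1 to 64.3 FPKM) and Stat5a (from 9.84 to 5.83 FPKM) were among the lower. Forkhead factors had 5 of 17 higher and 7 lower (6 and 5 after median-of-ratios scaling), none by 2-fold, with Foxp1 falling from 44.6 to 27 FPKM. The broad list of SMAD, TEAD, MEF2 and other factors had 30 of 86 higher and 26 lower, Cited2 alone passing a log2 fold change of 1 in either direction. Of 24 nuclear receptors 8 were higher and 12 lower. Nr4a1, an orphan receptor known as an early response gene in other cells, rose from 10.6 ± 0.57 to 31.3 ± 0.51 FPKM, and Nr4a2 rose from 3.28 to 9.25 FPKM. The steroid receptors diverged, the glucocorticoid receptor Nr3c1 rising from 25.5 to 41.4 FPKM and the mineralocorticoid receptor Nr3c2 falling from 2.58, 2.7 and 2.89 FPKM to 0.3, 0.31 and 0.43 FPKM (log2 fold change -1.47 ± 0.09 (SE), limma adjusted p = 8.2e-08). The retinoic acid receptor Rara fell from 20.4 to 10.2 FPKM and the fat cell regulator Pparg from 14.9 to 9.15 FPKM.

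**Figure D3:**
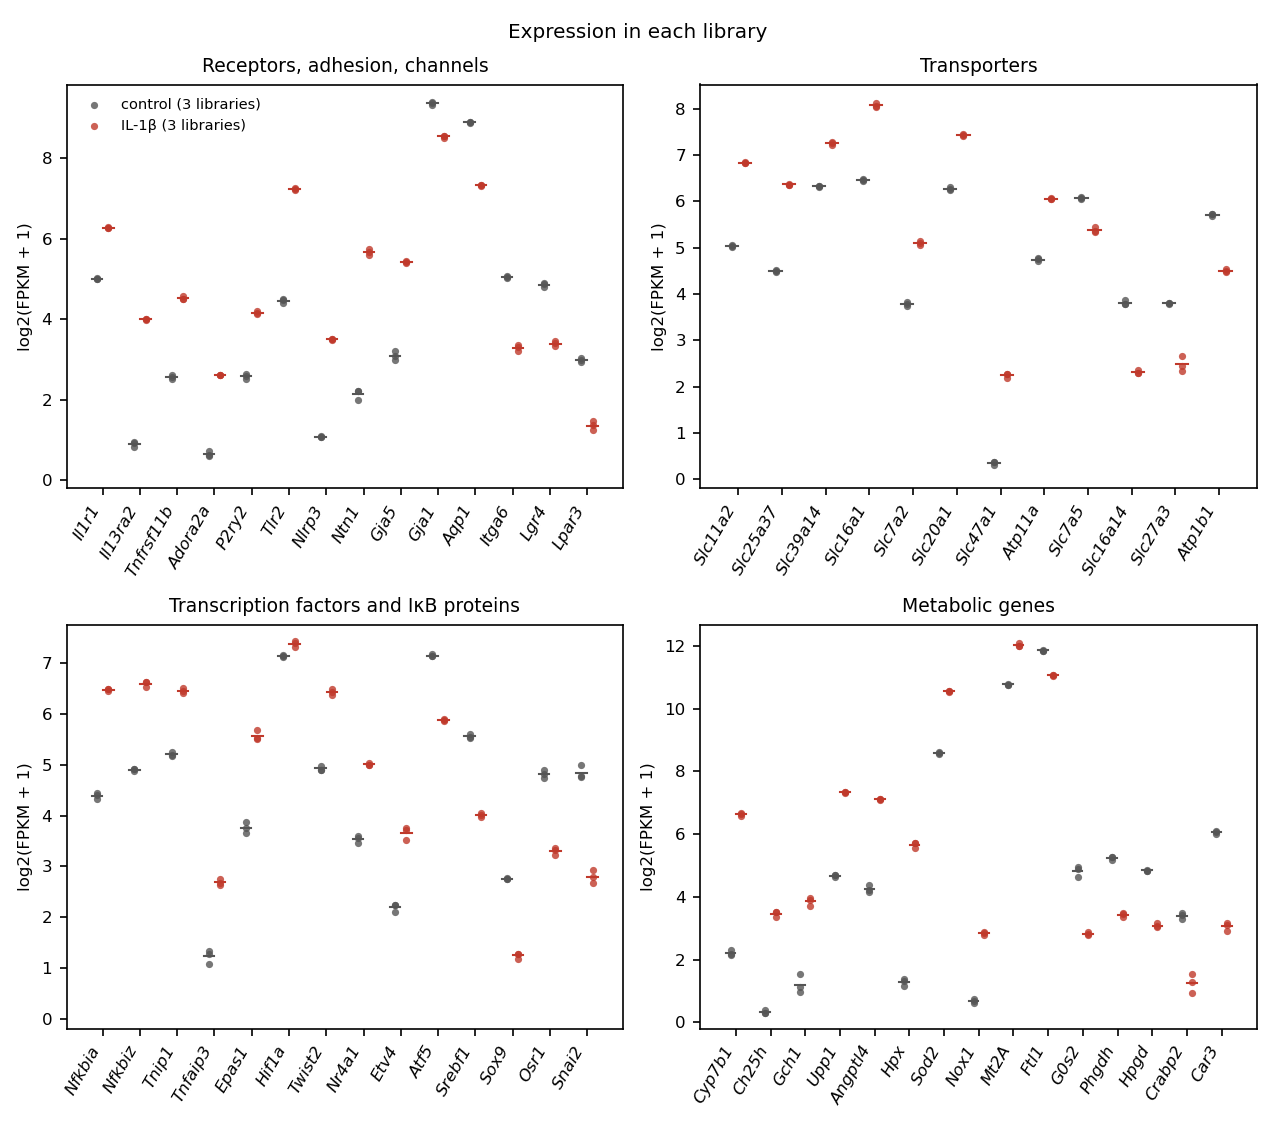
Expression in each of the 3 control (grey) and 3 IL-1β (red) libraries, as log2(FPKM + 1), with a short line at the group mean, for genes of 4 classes. For most genes shown the 3 points of a group lie close together, with wider spreads for Crabp2 with IL-1β and Gch1 in control. The groups do not overlap for any gene shown, which was a condition for picking most of these genes. Hif1a has the narrowest gap, at 141 FPKM in control and 167 FPKM in IL-1β libraries.

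Most genes of central carbon metabolism changed by less than 2-fold in RNA level, as did most genes tested (2.74% higher and 1.86% lower by 2-fold). Over all genes tested 20.5% were called higher and 31.2% lower. Of 50 genes of glycolysis, glycogen and the pentose phosphate path, 8 were higher and 23 lower (14 and 18 after median-of-ratios scaling, 5 and 25 when quantile-normalized). Enzymes of glycolysis moved by small factors: hexokinase Hk2 rose from 25.2 to 28.6 FPKM and the fructose bisphosphate regulator Pfkfb3 fell from 20.3 to 15.1 FPKM. The 2 members past 2-fold were both lower, Eno3, the muscle enolase (from 23.7 ± 0.63 to 6.22 ± 0.45 FPKM), and Pgm5, a relative of phosphoglucomutase found at adhesion sites (from 3.7 ± 0.37 to 0.357 ± 0.07 FPKM). Pyruvate dehydrogenase and citrate cycle genes had 1 of 37 members higher and 21 lower (2 and 15 after median-of-ratios scaling), none by 2-fold, with a median log2 fold change of -0.128. Cytosolic Idh1 fell from 94.1 to 57.2 FPKM, Acly, which makes cytosolic acetyl-CoA, from 100.8 to 69.7 FPKM, and Glud1 from 217 to 152 FPKM. Oxidative phosphorylation subunits had 24 of 99 higher and 19 lower and none past 2-fold, and their split turned with the scaling, to 38 and 13 with median-of-ratios and to 14 and 26 with quantile normalization. Fatty acid oxidation genes had 6 of 44 higher and 20 lower (7 and 14 after median-of-ratios scaling), although Cpt1a, the gate for fatty acid entry into mitochondria, rose from 9.52 ± 0.16 to 18.4 ± 0.71 FPKM.

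Lipid synthesis and storage genes fell most among the metabolic lists: of 54 tested, 14 were higher and 35 lower, 2 and 10 by 2-fold, with a median log2 fold change of -0.333. G0s2, an inhibitor of triglyceride lipase, was at 28.4, 29.6 and 23.9 FPKM without IL-1β and 6, 6.34 and 5.87 FPKM with it, 4.5-fold lower (log2 fold change -1.997 ± 0.07 (SE), limma adjusted p = 6.3e-10). Thrsp, which promotes fatty acid synthesis, fell from 13.9 ± 0.31 to 3.36 ± 0.14 FPKM, Pnpla3 from 4.91 to 1.15 FPKM and Acss2, which activates acetate, from 40.7 to 15 FPKM. The desaturases and elongase Fads1 (from 96.5 to 39.2 FPKM), Scd2 (from 599 to 237 FPKM) and Elovl6 (from 7.34 to 2.36 FPKM) fell by 2-fold as well. These genes fell along with Srebf1, described above, and with the summed adipocyte markers (773 to 817 FPKM in control, 494 to 524 FPKM with IL-1β), among which Fabp4 fell from 565 to 338 FPKM and Lep was at 0; the part of adipocyte-type cells in the result was not tested. Both members that rose by 2-fold act on circulating triglyceride. Angptl4, an inhibitor of lipoprotein lipase, was at 17.7, 19.7 and 17 FPKM against 138, 136 and 139 FPKM (log2 fold change 2.86 ± 0.05 (SE), limma adjusted p = 3.9e-13), and the lipase Lpl itself rose from 52.7 ± 1.3 to 127 ± 4.2 FPKM.

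Of 57 sterol genes 13 were higher and 34 lower, beside 20.5% and 31.2% of all genes. Their median log2 fold change was -0.251, while the enzymes that hydroxylate cholesterol side chains and oxysterols rose. Ch25h, cholesterol 25-hydroxylase, was at 0.33, 0.22 and 0.22 FPKM in control and 10.4, 10.6 and 9.31 FPKM in treated libraries, 39.3-fold higher (log2 fold change 3.14 ± 0.07 (SE), limma adjusted p = 1.4e-11). Cyp7b1, the oxysterol 7α-hydroxylase that acts on its product, was at 3.95, 3.4 and 3.54 FPKM against 93.5, 98.3 and 102 FPKM, 26.9-fold higher (log2 fold change 4.42 ± 0.07 (SE), limma adjusted p = 2e-13). These enzymes are the first steps towards 7α,25-dihydroxycholesterol, a ligand that guides lymphocytes. Star, which carries cholesterol into mitochondria, rose from 0.487 to 2.12 FPKM, and the synthesis enzymes Dhcr7 (from 36.6 to 16.3 FPKM) and Fdps (from 503 to 362 FPKM) fell.

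Steroid and retinoid genes had 10 of 28 members higher and 11 lower (11 and 9 after median-of-ratios scaling), 2 and 3 by 2-fold. In the retinoid branch Dhrs3, which returns retinal to retinol, rose from 8.6 ± 0.18 to 28.2 ± 2.2 FPKM. Crabp2, which delivers retinoic acid to its receptor, was at 8.88, 9.71 and 10.2 FPKM without and 1.9, 0.93 and 1.47 FPKM with IL-1β, 6.68-fold lower (log2 fold change -2.14 ± 0.14 (SE), limma adjusted p = 5.9e-07). Rarres1, known as a retinoic acid responsive gene, fell from 44.8 ± 1.8 to 11.6 ± 0.24 FPKM, and the receptor Rara fell as given above. Hsd11b1, which regenerates active glucocorticoid inside cells, rose from 64.6 ± 3.3 to 129 ± 6.3 FPKM, as its receptor Nr3c1 did.

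In amino acid metabolism 16 of 69 genes were higher and 30 lower. Nos2, the inducible nitric oxide synthase, was listed at 0 in all 3 controls and at 23, 20.4 and 22.2 FPKM with IL-1β. Genes that supply its substrate and cofactor were also higher. Gch1, the first enzyme of tetrahydrobiopterin synthesis, was at 1.89, 0.94 and 1.18 FPKM against 14.6, 12.1 and 13.8 FPKM (log2 fold change 2.65 ± 0.15 (SE), limma adjusted p = 2.2e-07). Ass1, which regenerates arginine from citrulline, rose from 0.543 ± 0.068 to 2.92 ± 0.57 FPKM, and the arginine carrier Slc7a2 rose as given above, as did Ddah1, which removes inhibitory methylarginines (from 18.4 to 35.5 FPKM). On the lower side was serine synthesis. Phgdh, its first enzyme, was at 37.2, 37.5 and 35.2 FPKM in control and 10.3, 9.35 and 9.92 FPKM in treated libraries, 3.72-fold lower (log2 fold change -1.79 ± 0.05 (SE), limma adjusted p = 3.6e-11). Psat1, the next enzyme, fell from 98.8 ± 1.4 to 49.6 ± 1.8 FPKM, the mitochondrial folate enzyme Aldh1l2 fell from 45.9 to 20.4 FPKM, and Cth, which makes cysteine, fell from 5.95 to 2.59 FPKM. Gatm, the first enzyme of creatine synthesis, fell from 1.87 to 0.21 FPKM.

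Nucleotide, folate and NAD genes had 19 of 110 higher and 44 lower, 4 and 1 by 2-fold. Upp1, uridine phosphorylase, whose promoter is printed above, was at 24.8, 23.6 and 25.2 FPKM without and 159.7, 158 and 161 FPKM with IL-1β, 6.5-fold higher (log2 fold change 2.65 ± 0.04 (SE), limma adjusted p = 2.3e-13). The treated libraries differed from each other by far less than from the controls. Ampd3, an AMP deaminase, rose from 2.91 ± 0.3 to 10.4 ± 0.55 FPKM, and Mthfd2l, of mitochondrial folate metabolism, rose from 2.63 to 8.15 FPKM. In NAD metabolism Nampt, the salvage enzyme, was at 85.6 FPKM in control and 86.4 FPKM in IL-1β libraries and did not pass (limma adjusted p = 0.77), while Nnmt, which methylates nicotinamide, fell from 25.7 to 14.3 FPKM.

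Phospholipid, sphingolipid and eicosanoid genes had 34 of 107 higher and 43 lower (37 and 36 after median-of-ratios scaling), with 7 and 2 changed by 2-fold. The steps before and after prostaglandin synthesis moved oppositely. The phospholipases that release arachidonic acid rose, Pla2g2a from 1.25, 1.31 and 2.1 FPKM to 122, 129.6 and 122 FPKM (log2 fold change 5.63 ± 0.15 (SE), limma adjusted p = 6.2e-09) and Pla2g4a from 18.4, 17.4 and 18.4 FPKM to 90.3, 89.8 and 97.6 FPKM (log2 fold change 2.29 ± 0.04 (SE), limma adjusted p = 9.4e-13). Hpgd, which breaks prostaglandins down, fell from 27.6, 28.2 and 27.6 FPKM to 7.35, 7.98 and 7.15 FPKM (log2 fold change -1.76 ± 0.05 (SE), limma adjusted p = 7.8e-11). None of these groups overlapped. Enpp2, autotaxin, which makes lysophosphatidic acid, rose from 2.45 ± 0.076 to 12.8 ± 0.54 FPKM while the receptor Lpar3 fell as given above, and the sphingosine kinase Sphk1 fell from 13 to 6.96 FPKM.

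The iron, haem and metallothionein list had 7 of 37 members higher by 2-fold and 1 lower, with 13 higher and 16 lower in all (14 and 13 after median-of-ratios scaling). Proteins that bind iron or haem outside the cell rose. Hpx, haemopexin, was at 1.62, 1.24 and 1.48 FPKM against 51.8, 51.6 and 46 FPKM, 34.4-fold higher (log2 fold change 4.38 ± 0.07 (SE), limma adjusted p = 3.5e-13), and haptoglobin Hp was at 31.4, 30.8 and 31 FPKM against 267, 269 and 264 FPKM (log2 fold change 3.06 ± 0.03 (SE), limma adjusted p = 3.9e-15). Ceruloplasmin Cp, a copper protein that oxidises iron, rose from 4.59 to 14.2 FPKM. Within the cell the order differed. Ftl1, the ferritin light chain, fell from 3657, 3687 and 3759 FPKM to 2101, 2149.6 and 2143 FPKM (log2 fold change -0.796 ± 0.03 (SE), limma adjusted p = 7.4e-10), and the haem oxygenase Hmox1 fell from 191 to 136 FPKM. The STEAP reductases split, Steap1 (from 126 to 297 FPKM) and Steap2 (from 56.6 to 146 FPKM) rising and Steap3 (from 48 to 22.4 FPKM) falling. Mt2A, a metallothionein that binds zinc and copper, was already at 1779, 1732 and 1728 FPKM and reached 4063, 4109 and 4314 FPKM (log2 fold change 1.25 ± 0.03 (SE), limma adjusted p = 5.7e-11), beside the rise of the zinc carrier Slc39a14.

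Redox and glutathione enzymes had 23 of 71 higher and 25 lower (28 and 23 after median-of-ratios scaling, 21 and 29 when quantile-normalized), 3 and 6 by 2-fold. Sod2, the mitochondrial superoxide dismutase, was at 382, 371 and 391.6 FPKM without IL-1β and 1474, 1517 and 1522 FPKM with it, 3.94-fold higher (log2 fold change 1.98 ± 0.03 (SE), limma adjusted p = 2e-13). Nox1, a superoxide-producing oxidase with a kB match in its promoter, was at 0.6, 0.52 and 0.69 FPKM against 6.34, 6.24 and 5.97 FPKM (log2 fold change 2.16 ± 0.08 (SE), limma adjusted p = 9.1e-10). Mgst1, a membrane glutathione transferase, rose from 119.7 ± 11 to 363 ± 19 FPKM, and the abundant Prdx5 rose from 1117 to 2063 FPKM. The genes that fell by 2-fold included Gpx3, secreted glutathione peroxidase (from 136 to 64.2 FPKM), Chac1, which degrades glutathione (from 10.1 to 3.24 FPKM), Sesn3 (from 25.3 to 11.3 FPKM) and Gsta5 (from 6.19 to 1.12 FPKM), whose reads may be shared with close copies in its family. In the list of cytochromes P450, dehydrogenases and conjugating enzymes, 18 of 58 were higher and 21 lower (23 and 20 after median-of-ratios scaling). Its carbonic anhydrases moved oppositely: Car3, a muscle and fat type, fell from 67.1, 66.5 and 63.8 FPKM to 6.5, 7.59 and 8.03 FPKM (log2 fold change -2.9997 ± 0.06 (SE), limma adjusted p = 2.4e-12), and the membrane-bound Car4 rose from 0.663 ± 0.12 to 6.21 ± 0.66 FPKM. Ces1a, of a carboxylesterase family with close copies, rose from 0.247 to 4.86 FPKM.

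Of 100 enzymes of glycosaminoglycans and glycosylation, 28 were higher and 41 lower, 5 of them higher by 2-fold and none lower by as much. Chsy3, a chondroitin synthase, was at 7.87, 6.64 and 7.6 FPKM in control and 32.8, 32.1 and 32.8 FPKM in treated libraries (log2 fold change 2.01 ± 0.06 (SE), limma adjusted p = 7.1e-11). Mgat1, which opens the way to complex N-glycans, rose from 163 ± 6 to 369 ± 7.9 FPKM, and the sialyltransferase St3gal3 rose from 14.3 to 32.5 FPKM. The extracellular sulfatases, which trim heparan sulfate, diverged, Sulf1 rising from 47.2 ± 0.79 to 103 ± 1.1 FPKM and Sulf2 falling from 7.46 ± 0.57 to 3.59 ± 0.42 FPKM (log2 fold change -0.884).

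**Figure D4:**
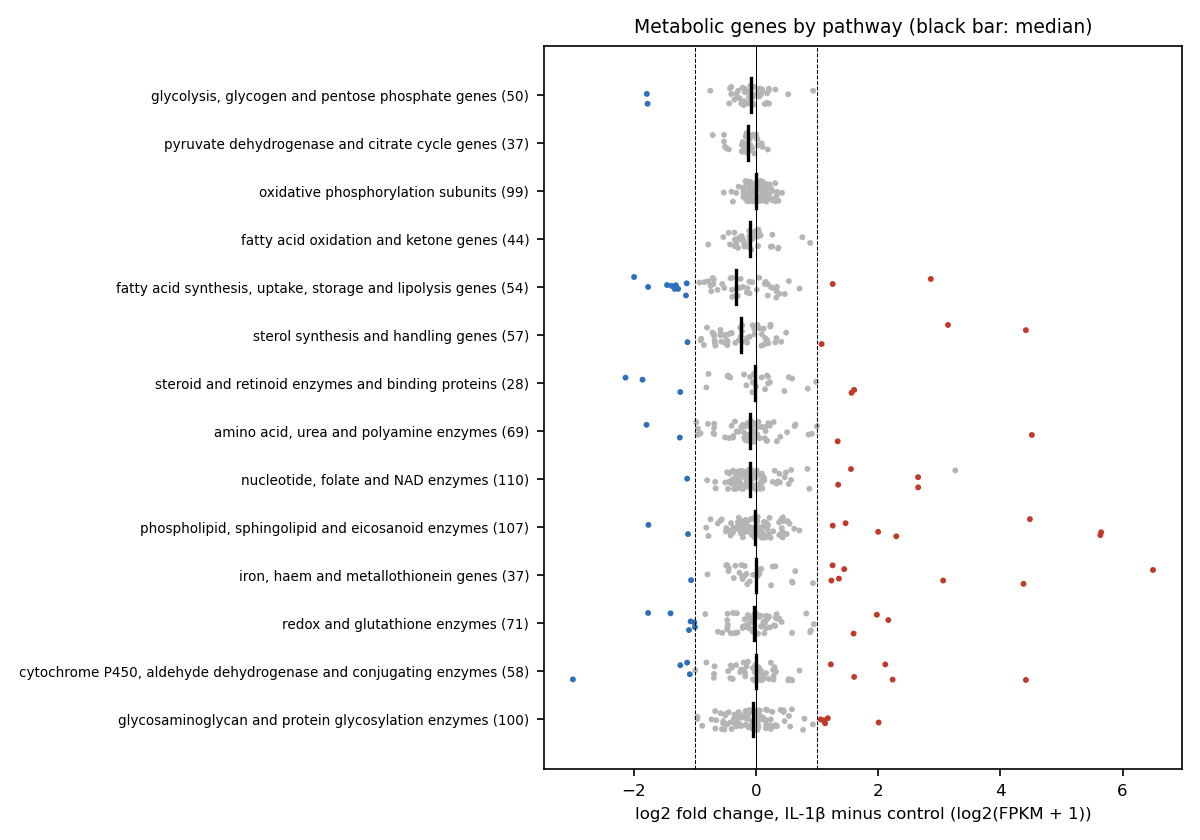
Log2 fold change of each tested metabolic gene (horizontal axis, log2(FPKM + 1), IL-1β minus control) by pathway list, with the number tested in brackets and a black bar at the median. Red and blue points passed the limma test and changed by at least 2-fold (dashed lines); the oxidative phosphorylation, citrate cycle and fatty acid oxidation lists hold no such point, while the lipid synthesis list has a median of -0.333 with 10 blue points.

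Genes that act at several steps of cyclic nucleotide and G protein signalling changed in RNA level, and signalling itself was not measured. Cyclases and phosphodiesterases had 19 of 44 members higher and 10 lower, 2 and 2 by 2-fold, with a median log2 fold change of 0.065. Pde4b, which degrades cyclic AMP, was at 20.2, 20.6 and 20.6 FPKM without and 53.3, 51.6 and 53.9 FPKM with IL-1β (log2 fold change 1.33 ± 0.04 (SE), limma adjusted p = 1.4e-10), and its relative Pde4d rose from 9.77 to 19.2 FPKM. Both rose alongside the adenosine receptors that stimulate cyclic AMP formation. Pde1a, a calcium-dependent phosphodiesterase, fell from 6.25 ± 0.45 to 1.19 ± 0.11 FPKM, and the scaffold Akap12 fell from 9.16 to 3.29 FPKM. The natriuretic peptide receptors Npr3 (from 8.43 to 20.6 FPKM) and Npr2 (from 25.5 to 49.8 FPKM) rose. RGS proteins, G protein subunits and related regulators had 14 of 40 higher and 14 lower (15 and 8 after median-of-ratios scaling). Gna14, a G protein subunit of the Gq family, was at 1.68, 1.79 and 1.8 FPKM against 13.7, 13.4 and 12.7 FPKM (log2 fold change 2.37 ± 0.06 (SE), limma adjusted p = 3.5e-11). Rgs16 (from 7.51 to 19.7 FPKM) and Rgs2 (from 7.76 to 19.6 FPKM), which shorten G protein signals, and Arrdc3 (from 15.8 to 50.5 FPKM), an arrestin relative, rose. Ramp1, a partner of the CGRP receptor, fell from 4.3, 4.65 and 5.65 FPKM to 0.11, 1.38 and 0.74 FPKM (log2 fold change -1.81 ± 0.27 (SE), limma adjusted p = 0.0007), with a wide spread among its low treated values.

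Genes in none of the lists held 170 of the 312 rises and 131 of the 212 falls by 2-fold. The widest rises among them included a calmodulin-binding peptide, Pcp4, at 0.61, 0.61 and 1.03 FPKM in control and 88, 103 and 96.2 FPKM in treated libraries, 128-fold higher (log2 fold change 5.79 ± 0.10 (SE), limma adjusted p = 2.9e-12). Slpi, a secreted inhibitor of neutrophil elastase, was at 13.7, 14.9 and 14.8 FPKM against 556, 596 and 534 FPKM (log2 fold change 5.19 ± 0.06 (SE), limma adjusted p = 2e-14). Sfrp2, a secreted Wnt modulator, was at 15, 15.6 and 15 FPKM against 327, 329.8 and 319 FPKM (log2 fold change 4.33 ± 0.03 (SE), limma adjusted p = 1.2e-15). All 3 were free of overlap by a wide margin. Arhgdib, best known in blood cells, rose from 7.98 to 129 FPKM, and the acute phase protein Orm1 rose from 0.677 to 19.6 FPKM. Myl1, a muscle light chain, rose from 0.187 to 24.5 FPKM, while the summed skeletal muscle markers went from 3.62 to 4.68 FPKM in control to 3.16 to 3.57 FPKM with IL-1β. The deepest falls included Gas6, the ligand of Axl, from 189, 189 and 183 FPKM to 35.1, 32.4 and 34.3 FPKM, 5.53-fold lower (log2 fold change -2.43 ± 0.04 (SE), limma adjusted p = 2e-13), although Axl itself rose. Aoc3, an amine oxidase of vessel wall and fat cells, fell from 59.5 ± 0.9 to 8.27 ± 0.31 FPKM, in a comparison in which the summed adipocyte and pericyte markers also fell. Cthrc1, a secreted protein of activated fibroblasts, fell from 42.9 to 6.02 FPKM, and Gfra1, a receptor for GDNF, fell from 12.9 to 1.69 FPKM.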

How the data were processed

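RNA was enriched for poly(A) with oligo(dT) beads and sequenced, per the labels' protocols. The values used are gene-level FPKM that the authors deposited in one table. Which aligner, counting program and annotation made them is not given in the sources used here. The submitters' processing notes name the build GRCm38, a mouse assembly, although the gene identifiers are those of rat. Read depth is unknown. Values were tested as log2(FPKM + 1) with limma 3.58.1 in R 4.3.3 (all 9 libraries, 1 coefficient a group, trend and robust variance, two-sided, Benjamini-Hochberg over 11372 genes), a procedure tested on simulated data. The threshold was an adjusted p of 0.05, and 2-fold means a log2 fold change of 1 or more in either direction.

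The 43 gene lists came from symbol patterns. The members and lists were chosen with earlier results of these data known. Named genes were up to 4 rises and 4 falls of each list without overlap between groups, the 2 most abundant members, 12 rises and 12 falls outside the lists, and a fixed set. The cell type markers, Ptgir, Csf2rb, Tnfrsf1a, Tnfrsf1b, Tlr4, Ednrb, Slc40a1, Nfkb1, Nfkb2, Relb, Fads1, Scd2, Elovl6, Enpp2, Steap1 and Steap2 were named beyond that rule, as were the abundant genes and Hprt1, Fxyd2 and Gng11 in the closing observations, after their values were seen. Alternatives covered the pseudocount, the filter, scaling, the libraries and variance model used, a replicate block and leaving out each library. Values of 40 genes equal those of another gene in all libraries. Some genes that met the naming rule are not reported here.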

Additional observations from a re-analysis of the deposited data

How the results depend on the processing

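None of the 4 counts of changed genes moved by more than 1.5 times under any alternative run. Genes higher by 2-fold numbered 373 with a pseudocount of 0.1, 326 with no filter, 215 with a minimum mean of 5 FPKM, 330 after median-of-ratios scaling and 311 when quantile-normalized, against 312 as reported. Genes lower by 2-fold numbered 315, 214, 146, 191 and 206 in the same order, against 212. With 1 library left out the counts ran from 311 to 316 and from 209 to 220, and all higher genes from 2075 to 2304 and all lower genes from 3147 to 3505. Same-numbered control and IL-1β libraries deviated together with correlations of 0.0909, -0.046 and 0.0862, and differently numbered ones with -0.13 to 0.0432. The highest values, 0.0909 and 0.0862, were thus those of same-numbered libraries, though all were weak. The origin of the replicates is not given, and the numbers were not taken as pairs. With the replicate block 2329 genes were higher and 3529 lower, 313 and 212 by 2-fold. Of 440 genes that met the naming rule, 31 changed their side of the threshold under at least 1 alternative and 3 changed sign. Most of these are not named elsewhere in the text. Ldha (limma adjusted p = 0.0068, from 0.00012 to 0.074 over the alternatives), Tpi1 (0.00014, from 1.7e-05 to 0.069), Slc38a2 (0.03, from 0.0014 to 0.74, with the log2 fold change turning to -0.0112 when quantile-normalized) and, from outside the rule, Rela (0.017, and 0.068 without control replicate 3) were left out of the report after their calls were seen to change. Of 266 genes named in the text and run again, 8 changed their side or sign: these 4, Bdkrb2, Egfl7, Hprt1 and Gng11. This number is low partly because of that choice. Of the 86 counts of list members higher or lower, 30 moved by more than 1.5 times in at least 1 alternative; the cause was not tested. What limits these data is the unknown depth, which leaves the error of values near 0 FPKM unmeasured, and the lack of a stated source for the 3 libraries of a group. The mouse build named for rat identifiers could not be checked.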

Other observations

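Some abundant genes outside the lists differed widely in FPKM as well as, or rather than, in fold. Mgp, an inhibitor of mineral deposition, was at 1091 FPKM in control and 11446 FPKM in IL-1β libraries, the largest gain of any gene that passed the limma test. Decorin (Dcn), a small proteoglycan and one of the fibroblast markers, went from 640.9 to 3112 FPKM. The actin-binding peptide gene Tmsb10 went from 3814 to 5107 FPKM. The largest loss was that of vimentin (Vim), the intermediate filament of mesenchymal cells and itself a fibroblast marker, from 4902 to 2114 FPKM, at a log2 fold change of -1.21. Its promoter holds a kB match although its level fell. Cathepsin L (Ctsl) went from 1388 to 896 FPKM, the collagen chaperone Serpinh1 from 1564 to 995 FPKM, and annexin A2 (Anxa2) from 2110 to 1609 FPKM. The summed synovial lining markers, which include Prg4 and the complement regulator Cd55, were at 387 to 398 FPKM in control and 695 to 706 FPKM in IL-1β libraries. Cd55 alone went from 26.6 to 107 FPKM. The members did not move as a block: of 5 tested, 3 passed as higher and 2 as lower. Has1 was at 2.11, 1.38 and 1.33 FPKM in control and 0.51, 0.77 and 0.6 FPKM in IL-1β libraries. Has2 went from 33.95, 31.81 and 32.7 FPKM to 29.04, 28.41 and 29.53 FPKM.

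Hprt1, a purine salvage enzyme often used as a reference gene, was listed at 1.21, 2.02 and 4.68 FPKM in the control libraries and at 29.3, 30.6 and 33.9 FPKM in the IL-1β libraries, which did not overlap. The co-culture libraries listed it at 0, 0.01 and 15.8 FPKM, and this spread enters the fit, where Hprt1 missed the threshold (limma adjusted p = 0.053). In the fit of the 6 control and IL-1β libraries alone Hprt1 had a limma adjusted p of 0.0027, and with co-culture replicate 3 left out 0.00049; over all alternatives it ran up to 0.17. Fxyd2, a sodium pump regulator, was at 58.9 FPKM in IL-1β replicate 3 and at 2.62 and 1.56 FPKM in the other IL-1β libraries. Gng11, a G protein subunit, was at 0.23 FPKM in control replicate 2 and at 5.18 and 7.28 FPKM in the other controls, and with that library left out it passed as lower (limma adjusted p = 0.035). The cause of these values was not tested.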
